A study of Mus musculus with 9 samples.

Results

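The Bcl2 family sets whether a stressed cell lives or dies, and 10 of its genes were examined in melanocytes, the pigment cells of skin, purified from mouse epidermis by FACS, fluorescence-activated cell sorting. The genes were chosen by name: the pro-survival Bcl2, Bcl2l1, Mcl1 and Bcl2a1b, the pro-death effectors Bax and Bak1, and the BH3-only genes Bcl2l11, Bbc3, Bid and Bad. Of these 10, 9 were measured among 16299 genes in all, and Bcl2a1b was not analysed here. RNA sequencing libraries came from 3 groups of 3. Knockout back libraries were from back epidermis of mice labelled Spry1flox/flox k14-Cre-ERT2, and knockout tail libraries from tail epidermis of mice with that same genotype. Control tail libraries were from tail epidermis of mice labelled Spry1flox/flox, so all groups carried the floxed Spry1 allele and the control label names no Cre. No control back group was analysed here, so body site can be compared within the knockout genotype only. The k14 promoter is active in basal keratinocytes, so deletion of Spry1, an inhibitor of receptor tyrosine kinase signalling, is aimed at the cells around the melanocytes. Age, sex and treatment to induce Cre are not stated in the labels. Whether the 3 replicates of a group are different mice is not stated in the labels. The spread that p-values rest on is therefore that between libraries, and how much of it is technical is not known.

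BCL2 family proteins meet at the outer mitochondrial membrane. BAX and BAK1 open pores in it and release cytochrome c, which starts the caspase cascade. BCL2, BCL-XL (from Bcl2l1) and MCL1 hold them in check, and BH3-only proteins are made or activated under stress and block the guardians or engage the effectors. In mouse skin, Bcl2 is known for a special role in pigment cells: mice without it turn grey, because melanocyte stem cells of the hair follicle are lost. In human melanocytes, the lineage factor MITF is known to drive BCL2.

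Bcl2 was the only member called different between knockout back and knockout tail, a call that some settings lost. Bax was the member with the most reads per length, so the promoters of these 2 genes are shown. Each sequence runs 5′ to 3′ on the gene's own strand, from 250 bases before to 50 bases after the RefSeq start on build GRCm38.p6. Capitals mark CACGTG, the E-box read by MITF, MYC and USF factors, CATGTG, the core of the M-box of pigment genes, and TGACGT, the core of the cyclic AMP response element, each searched on both strands.
Bcl2 promoter, chr1:106714241-106714540, minus strand: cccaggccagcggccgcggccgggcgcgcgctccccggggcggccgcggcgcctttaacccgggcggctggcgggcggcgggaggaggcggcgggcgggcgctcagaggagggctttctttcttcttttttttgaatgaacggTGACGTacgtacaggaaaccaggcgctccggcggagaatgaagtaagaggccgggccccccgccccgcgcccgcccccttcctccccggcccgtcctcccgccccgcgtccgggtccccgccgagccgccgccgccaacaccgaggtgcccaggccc
Bax promoter, chr7:45466849-45467148, minus strand: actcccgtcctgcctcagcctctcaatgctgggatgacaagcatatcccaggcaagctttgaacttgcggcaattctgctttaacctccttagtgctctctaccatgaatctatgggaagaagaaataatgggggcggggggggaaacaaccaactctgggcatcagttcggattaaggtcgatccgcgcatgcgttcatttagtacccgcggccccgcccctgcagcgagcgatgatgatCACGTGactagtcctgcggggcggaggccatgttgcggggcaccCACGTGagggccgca
The Bcl2 window held 1 TGACGT, 0 CACGTG and 0 CATGTG, and the Bax window held 2 CACGTG, 0 CATGTG and 0 TGACGT. Over 32851 promoter windows of 300 bases, 7.2% held CACGTG, 14.2% CATGTG and 7.5% TGACGT. The GC box GGGCGG was found 7 times in the Bcl2 window and 3 times in the Bax window, and 35.7% of windows held at least 1. CACGTG was also found once in 1 of the 3 Bbc3 windows and CATGTG once in 1 of the 3 Bcl2l1 windows. Promoter windows were matched for 10 of the 10 members, 16 windows in all. A match is a description of letters and not a bound site.

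Values below are normalised counts, that is, whole counts recovered from the authors' deposited log2 values and scaled by library size factors. Recovered totals ran from 45.7 to 67.8 M counts per library, where M is mega. The first and second knockout back libraries were sparse: 0 counts were found for 4628 and 6127 genes there, and for 854 to 1739 genes in each remaining library. Replicate 3 of knockout tail and replicate 3 of knockout back formed a set of their own, since a shift between those 2 and the 7 remaining libraries had been removed from the deposited values. Normalised counts are given with that shift put back, and the test used the deposited values without it. That set of 2 held no control library, so the shift cannot be fully told apart from differences between groups. Its removal can therefore alter the tested differences from control tail. Melanocyte genes were abundant in every library, with at least 156795 counts of Mlana and 117146 of Tyr. Keratinocyte transcripts were present too, with 9870 to 149929 counts of Krt14. Spry1 had 2120, 0 and 761 counts in knockout back, 4446, 2082 and 508 in knockout tail and 1915, 1298 and 1587 in control tail, which does not show whether the gene was deleted. Sex-linked transcripts differed between libraries and between groups. Eif2s3y of the Y chromosome had 3275, 2543 and 3922 counts in knockout back, 4890, 5677 and 0 in knockout tail and 154, 0 and 9 in control tail. Xist had 1313, 1266 and 2699 counts in knockout back, 5, 19 and 6364 in knockout tail and 5354, 1711 and 4908 in control tail. The part of sex in the results was not tested.

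Among the pro-survival genes, Bcl2 stood more than 4 times higher by mean in sorted cells of knockout back than in those of either tail group. Bcl2, the founding inhibitor of apoptosis (ENSMUSG00000057329.7, chr1:106538178-106714274, minus strand, GRCm38, protein coding), had 9702, 7974 and 9611 normalised counts in knockout back, against 2353, 2137 and 2193 in knockout tail and 2128, 1293 and 2596 in control tail. Every back library lay above every tail library, and the knockout tail libraries lay within the range of the control tail libraries. The antisense gene D630008O14Rik overlaps 6.1% of the Bcl2 exon length, and whether the counting used strand is not stated. The mean was 9096 ± 972 in knockout back, 2228 ± 112 in knockout tail and 2006 ± 660 in control tail (SD, n = 3 each), a ratio of 4.08 for back over knockout tail and 4.54 for back over control tail.

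Bcl2 rose in knockout back against knockout tail by 1.82 on the log2 scale (SE 0.29, 95% interval 1.16 to 2.48, limma adjusted p = 0.031). It also rose in knockout back against control tail, by 1.82 (SE 0.29, 95% interval 1.16 to 2.48, limma adjusted p = 0.042). These 2 comparisons share the back libraries, so the second is not separate, and it joins body site with genotype. When library set was added to the limma fit, the differences were 1.82 and 1.97, with adjusted p of 0.048 and 0.025, where 0.436% and 3.34% of all genes were called. Within the smaller set, the single back library had 9611 and the single tail library 2193, a ratio of 4.38, and within the larger set 2 back libraries averaged 8838 and 2 tail libraries 2245, a ratio of 3.94. All 20 other settings kept the difference positive in both comparisons, between 1.57 and 2.03 against knockout tail and between 1.56 and 2.23 against control tail. The threshold was passed in 11 of 20 settings in each. With the set shift put back, the call against knockout tail was lost (limma adjusted p = 0.07). Against control tail the difference was then 1.98 (limma adjusted p = 0.02).

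The call of Bcl2 against knockout tail was lost when any of 6 single libraries was left out, by limma: adjusted p was 0.097 without the first back library, 0.061 without the second, 0.086, 0.095 and 0.12 without the first, the second and the third knockout tail library, and 0.065 without the first control library. Against control tail it was lost without the first or second back library (limma adjusted p of 0.12 and 0.078), without the first or second knockout tail library (0.08 each) and without the first, the second or the third control library (0.13, 0.14 and 0.13). Without both sparse back libraries, which leaves 1 back library assumed to vary like the other groups, the differences were 1.57 and 1.56, with limma adjusted p of 0.3 and 0.39. In the same setting 0 genes of the whole table passed in either comparison.

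**Figure D1:**
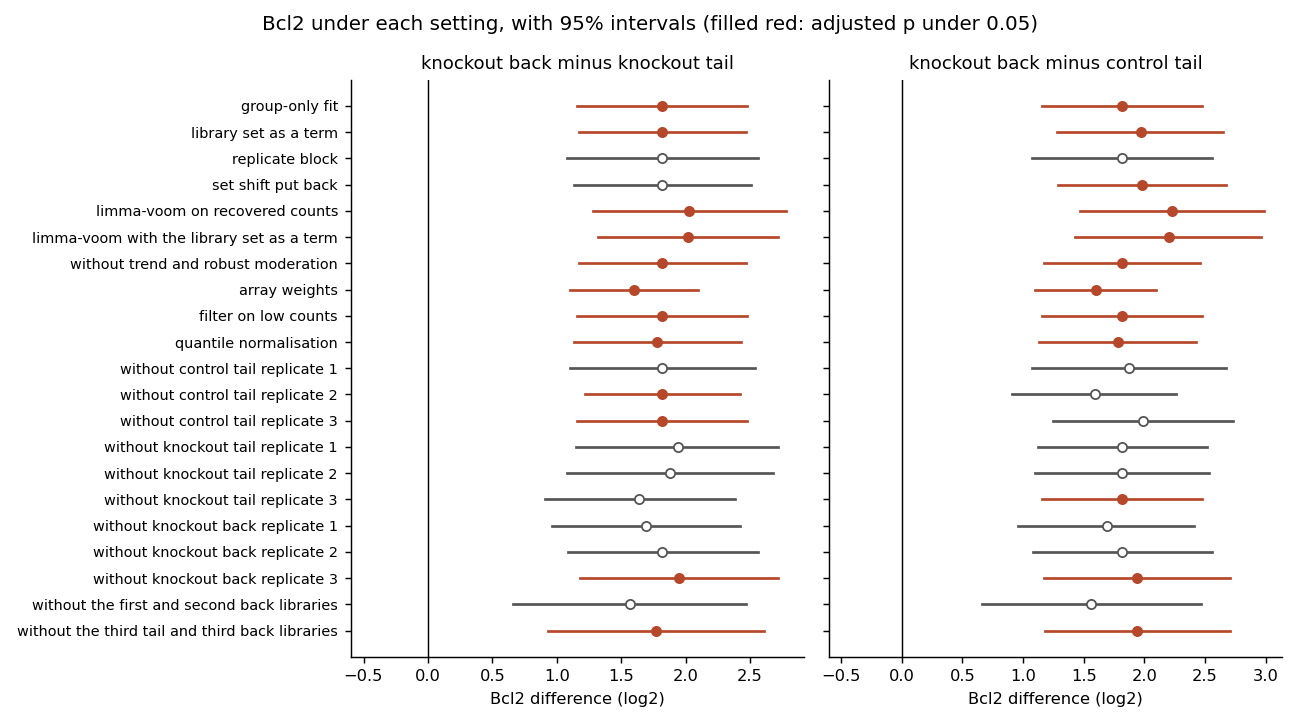
Difference of Bcl2 on the log2 scale (horizontal axis) with 95% intervals, knockout back minus knockout tail (left) and knockout back minus control tail (right), for the group-only limma fit and 20 other settings down the page. Every point lies between 1.56 and 2.23, and filled red points are those with an adjusted p under 0.05.

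In bulk sorted cells, a larger number of cells that make a transcript and more of it per cell cannot be told apart. Markers of other cells were therefore read beside Bcl2. T cells are known to contain Bcl2: the 7 measured of 10 T cell markers summed to 59, 230 and 1824 normalised counts in knockout back, against 284, 377 and 741 in knockout tail and 127 to 344 in control tail. Cd3g, Trbc1 and Lck were at 0 counts in the first back library, which is 1 of the 2 sparse libraries. The 7 measured of 12 Langerhans and myeloid markers summed to 2020, 14451 and 15937 in knockout back, against 3486, 1788 and 8558 in knockout tail and 1418 to 3296 in control tail, and Ptprc and Cd68 were at 0 counts in that same sparse library. Basal keratinocyte markers, 8 of 8 measured, summed to 128635, 50216 and 195135 in knockout back, against 41188, 17845 and 332288 in knockout tail and 45292 to 104927 in control tail. Dissociation stress and immediate early genes were higher in back too: all 16 measured had a positive difference between back and knockout tail. The median was 1.53, against -0.18 over all genes, and 10 of the 16 rose, where limma called 0.411% of all genes higher. The number that passed was 4 with the set term and 0 to 12 when 1 library was left out, with 0 without the first control, the first or the third knockout tail or the first back library. Their summed level was 853249, 646477 and 2918071 in knockout back, against 309160, 343716 and 661278 in knockout tail and 358040 to 532832 in control tail. In this sum the third knockout tail library lay above the second back library, so the 2 groups overlapped. Between knockout back and control tail 3 of the 16 rose, where limma called 0.387% of all genes higher. Melanocyte markers, 5 of 8 with whole counts, summed to 714881 to 841190 in knockout back, 576027 to 690015 in knockout tail and 517674 to 537754 in control tail. Of the 8, the group-only limma fit called 1, Mlana, higher in back than in each tail group. Mast cell and granulocyte markers, 2 of 7 measured, summed to 4291 to 6729 in knockout back, 9304 to 20798 in knockout tail and 11605 to 15849 in control tail. Fibroblast markers, 4 of 6 measured, summed to 400 to 2388 in knockout back, 1598 to 3228 in knockout tail and 925 to 1985 in control tail. Of these 4, limma called 1, Col1a2, lower in back than in knockout tail, a call lost with the set term. In that comparison 1.09% of all genes were called lower. Schwann cell and Merkel cell markers, 3 of 6 measured, summed to 26255, 25077 and 47313 in knockout back. Their sums were 13558, 7478 and 13521 in knockout tail and 7328 to 13446 in control tail, so every back library lay above every tail library. Single genes showed such an upward gap in 4.55% of cases against knockout tail and 7.41% against control tail. Of these 3 markers 0 passed in either comparison by limma. The part of these markers in the Bcl2 difference was not tested.

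No other pro-survival member passed the test. Bcl2l1, which encodes BCL-XL, had 13263, 2399 and 8030 normalised counts in knockout back, against 8089, 5822 and 9306 in knockout tail and 7573, 6665 and 5613 in control tail. The back libraries held both the highest and the lowest of the 9 values, with the low one in the sparser of the 2 sparse libraries. The difference was -0.22 for back against knockout tail (95% interval -1.3 to 0.87, limma adjusted p = 0.83) and 0.06 for knockout tail against control tail (95% interval -1.02 to 1.15, limma adjusted p = 1.0). Without the second back library the difference of Bcl2l1 between back and knockout tail was 0.35 (limma adjusted p = 0.55), so that its sign rests on that library.

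Mcl1, a short-lived guardian protein, had 7705, 2592 and 3776 normalised counts in knockout back, against 6714, 6320 and 2089 in knockout tail and 3871, 5481 and 6273 in control tail. The groups overlapped in full, and the lowest value was in the third knockout tail library. The difference was -0.08 for back against knockout tail (95% interval -1.0 to 0.84, limma adjusted p = 0.93) and 0.11 for knockout tail against control tail (95% interval -0.81 to 1.03, limma adjusted p = 1.0).

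The effectors did not pass the test in any of the 3 comparisons. Bax had 10507, 17336 and 7370 normalised counts in knockout back, against 9459, 8769 and 6699 in knockout tail and 11151, 11261 and 15571 in control tail. Every knockout tail library lay below every control library on this scale, an arrangement found in 9.31% of genes, while in the deposited values the third knockout tail library and the lowest control library were both at 13.16 and the groups overlapped. The mean was 8309 ± 1436 in knockout tail and 12661 ± 2520 in control tail (SD, n = 3 each), and the fitted difference was -0.34 (95% interval -0.87 to 0.18, limma adjusted p = 1.0). For back against knockout tail it was 0.41 (95% interval -0.12 to 0.93, limma adjusted p = 0.35).

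Bak1, the second pore former, was far less abundant, with 565, 343 and 86 normalised counts in knockout back, against 564, 359 and 142 in knockout tail and 305, 151 and 364 in control tail. The 2 libraries of the smaller set had the lowest values of all. The difference was -0.09 for back against knockout tail (95% interval -0.73 to 0.56, limma adjusted p = 0.89) and 0.38 for knockout tail against control tail (95% interval -0.27 to 1.02, limma adjusted p = 1.0). Exons of Bak1 overlap those of Ggnbp1 on the opposite strand over 25.5% of their length, and the counting is not stated to use strand, so reads of the 2 genes may not be separable.

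The BH3-only genes did not pass either. Bcl2l11 encodes BIM, which responds to loss of growth factor signalling. It had 1630, 0 and 428 normalised counts in knockout back, against 305, 274 and 280 in knockout tail and 407, 352 and 5 in control tail. Knockout tail was tight, with a coefficient of variation of 5.74%, while 1 back library was at 0 counts (a limit of 3 counts, or 3.51 normalised) and 1 control library at 6 counts. The difference was 0.14 for back against knockout tail (95% interval -1.52 to 1.79, limma adjusted p = 0.93), the widest interval among the members. With limma-voom on the recovered counts it was -1.94 (adjusted p = 0.75), so no direction can be given.

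Bbc3 encodes PUMA, a target of p53. It had 1003, 784 and 263 normalised counts in knockout back, against 580, 193 and 171 in knockout tail and 944, 650 and 678 in control tail. All knockout tail values lay below all control values, in the deposited values as well, where 15.8% of genes showed a gap between these groups in either direction. The mean was 315 ± 230 in knockout tail and 757 ± 162 in control tail (SD, n = 3 each), and the difference was -0.51 (95% interval -1.26 to 0.25, limma adjusted p = 1.0). For back against knockout tail it was 0.61 (95% interval -0.14 to 1.37, limma adjusted p = 0.33).

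Bid, which links death receptors to mitochondria once cleaved by caspase 8, ranged over 1419 to 3751 normalised counts in knockout back, 1763 to 2702 in knockout tail and 1803 to 2933 in control tail. Its difference was 0.01 for back against knockout tail (95% interval -0.81 to 0.82, limma adjusted p = 0.99). Bad, which is held inactive by survival kinases through phosphorylation, had 4074, 10503 and 2388 in knockout back, against 5941, 4867 and 4637 in knockout tail and 4746, 9269 and 6580 in control tail. Its difference was -0.1 for back against knockout tail (95% interval -0.99 to 0.8, limma adjusted p = 0.91). Exons on the opposite strand overlap 17.7% of Bid (Bcl2l13) and 20.5% of Bad (Gpr137), with the same limit as for Bak1.

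Counted over the family, 1 of 9 members rose and 0 fell in knockout back against knockout tail, where limma called 1.50% of all genes (0.411% higher and 1.09% lower). The median difference of the members was 0.01, against -0.18 over all genes. In knockout back against control tail 1 of 9 rose and 0 fell, where 1.0% of all genes were called (0.387% higher and 0.614% lower), with a median of 0.06 against -0.23. In knockout tail against control tail 0 of 9 passed by limma, 0 with an unadjusted p under 0.05 and 0 by limma-voom. In that comparison 0% of all genes were called, 814 had an unadjusted p under 0.05 and the median of the members was 0. Bcl2 was the only member at an unadjusted p under 0.05 in each comparison with back. Of all 16299 genes, 3474 were under it by limma against knockout tail and 4255 against control tail, in both a larger share than 1 of 9. Bcl2 was also the only member whose back libraries lay apart from both tail groups in normalised counts, which 4.55% of genes showed in the upward direction against knockout tail and 7.41% against control tail. The limma-voom fit on counts moved the median of all genes to -0.74 for back against knockout tail, and in it Bcl2 differed by 2.03 and still passed. With the set term added to limma-voom, that median was -0.63, and Bcl2 differed by 2.02 and passed.

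**Figure D2:**
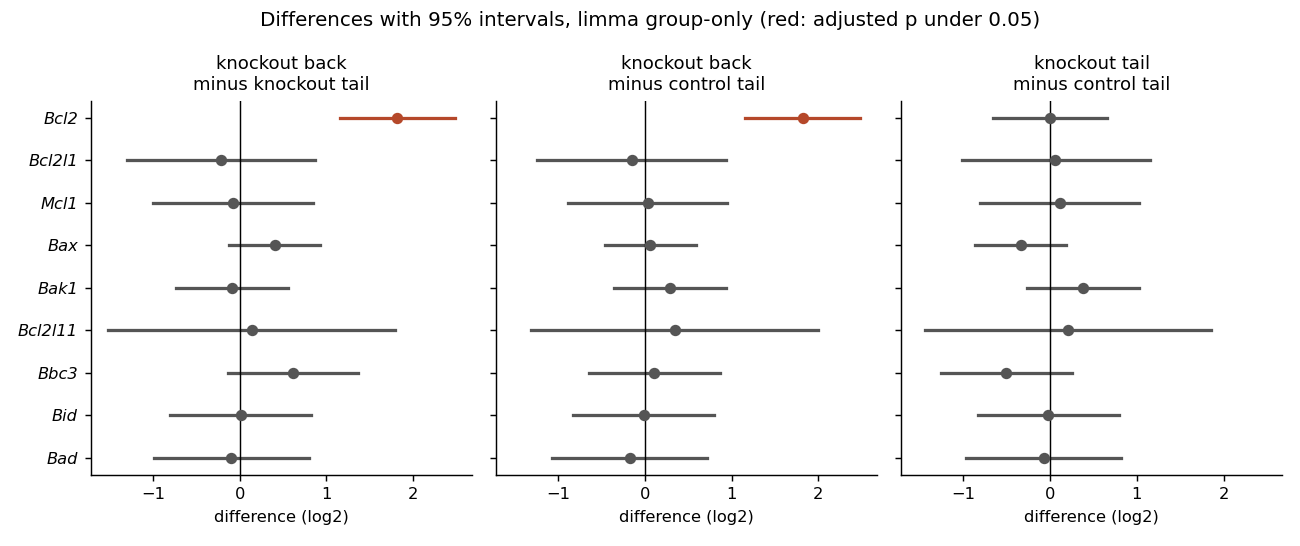
Difference of each of 9 members on the log2 scale (horizontal axis) with its 95% interval from the group-only limma fit, for knockout back minus knockout tail, knockout back minus control tail and knockout tail minus control tail. Bcl2 lies at 1.82 in both comparisons with back, in red for an adjusted p under 0.05, and every other interval includes 0.

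Levels of different genes were compared per kilobase of annotated exon. Bax led in each group, at 7430 ± 3230 normalised counts per kilobase in knockout back, 5260 ± 909 in knockout tail and 8010 ± 1600 in control tail (SD, n = 3 each). Bad followed with means of 2210, 2010 and 2680 in that order of groups, then Bcl2l1 with 1720, 1690 and 1440 and Mcl1 with 1370, 1470 and 1520, and Mcl1 and Bcl2l1 overlapped in every group. Bad overlapped both of them in knockout back and knockout tail, and in control tail its lowest value, 1850, lay above their highest, 1830. Bid stood at 671, 628 and 680. Bcl2 stood at 993 ± 106 in knockout back, above the mean of Bid with overlapping ranges (871 to 1060 for Bcl2 and 400 to 1060 for Bid). In knockout tail it stood at 243 ± 12.3 and in control tail at 219 ± 72.1, below all values of Bid in both groups. Bbc3 had means of 322, 149 and 357, so that it lay below Bcl2 in knockout back without overlap, overlapped it in knockout tail, and in control tail (306 to 445) lay above it (141 to 283). Bak1 had means of 138, 147 and 114. Bcl2l11 was lowest by mean in each group, with 85.5 in knockout back, 35.7 in knockout tail and 31.7 in control tail. Of the summed level of Bcl2, Bcl2l1 and Mcl1, Bcl2 made up 17.1%, 40.5% and 26.9% in knockout back, against 6.45%, 6.96% and 8.32% in knockout tail and 7.71%, 4.42% and 8.48% in control tail. The exon lengths count every annotated exon, whichever transcript is made.

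The balance of pro-survival over pro-death transcripts was read as a log2 ratio of levels per kilobase within each library, as a description with no test. Bcl2 over Bax was -2.65, -3.66 and -2.15 in knockout back, against -4.54, -4.57 and -4.15 in knockout tail and -4.93, -5.66 and -5.12 in control tail. The 3 groups did not overlap on this scale, with the back libraries nearest to equal levels. In the deposited values, with the set shift removed, the ratio was -2.02, -3.03 and -2.78 in knockout back, against -3.88, -3.9 and -4.82 in knockout tail and -4.26, -4.97 and -4.47 in control tail. There the back libraries again lay apart from both tail groups, while the tail groups overlapped, and the mean of knockout tail minus control tail was 0.36, against 0.81 with the shift put back. Bcl2l1 over Bax was -1.2, -4.39 and -1.41 in knockout back, against -1.76, -2.13 and -1.06 in knockout tail and -2.1, -2.3 and -3.01 in control tail, and Mcl1 over Bax spanned -3.86 to -1.56 in knockout back, -2.8 to -1.59 in knockout tail and -2.64 to -2.15 in control tail. Both ratios overlapped between back and the tail groups.

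Summed over the 3 pro-survival and the 6 pro-death members, the ratio was -0.72, -2.91 and -0.67 in knockout back, against -1.23, -1.32 and -1.28 in knockout tail and -1.76, -1.87 and -2.04 in control tail. Pro-death transcripts outweighed pro-survival ones per kilobase in every library. The back libraries split, with the second, which was the sparsest library, below all others and the remaining back libraries above all others. The mean was -1.43 ± 1.28 in knockout back, -1.28 ± 0.04 in knockout tail and -1.89 ± 0.14 in control tail (SD, n = 3 each). Back minus knockout tail was -0.16, and 0.58 without the second back library, so its direction rests on that library. Knockout tail minus control tail was 0.61, or 0.35 in the deposited values with the set shift removed.

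**Figure D3:**
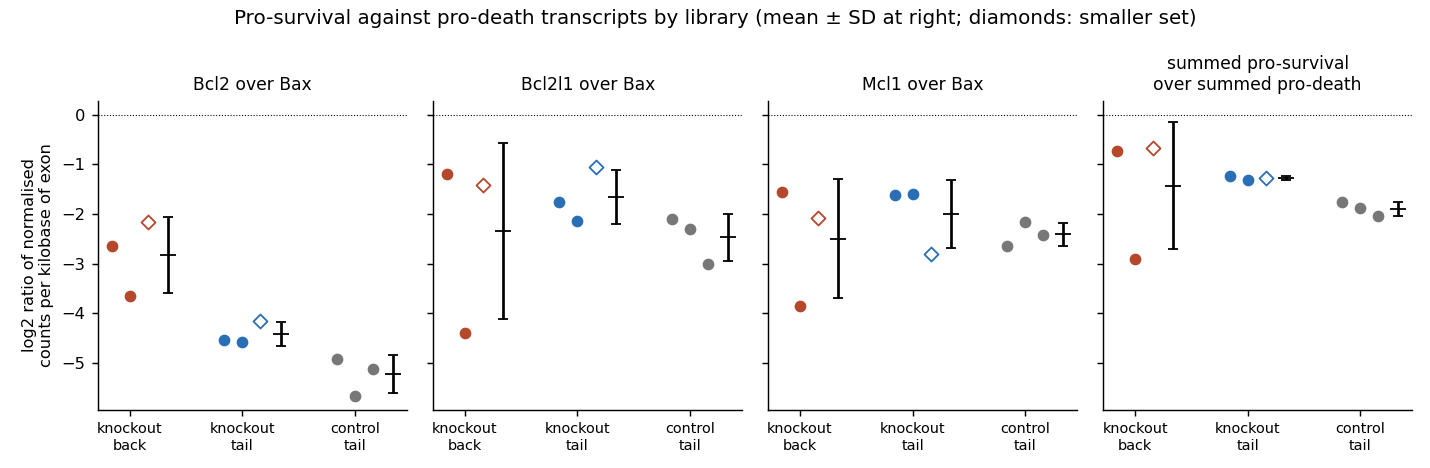
Log2 ratio of normalised counts per kilobase of exon (vertical axis) for Bcl2, Bcl2l1 and Mcl1 over Bax and for the summed pro-survival over the summed pro-death members, in knockout back, knockout tail and control tail; points are libraries, diamonds the smaller set and bars mean ± SD of 3. Bcl2 over Bax runs from -3.66 to -2.15 in knockout back, against -4.57 to -4.15 in knockout tail and -5.66 to -4.93 in control tail, where the gap between the tail groups is present only with the set shift put back, and the summed ratio does not separate back from tail.

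Genes around the family were read from lists of 86 apoptosis genes and regulators, of which 73 were measured. Between knockout back and knockout tail 0 rose and 1 fell, where 1.50% of all genes were called (1.09% lower), so the share is near that of all genes. The median was 0.05, against -0.18 over all genes. The gene that fell was Tnfrsf1b, the second receptor for tumour necrosis factor, with 17, 57 and 0 normalised counts in knockout back against 1572, 3055 and 2199 in knockout tail, a difference of -3.06 (limma adjusted p = 0.021, and 0.037 with the set term). The call of Tnfrsf1b was lost, by limma, with an adjusted p of 0.051 without the first control library, 0.075 without the first or the second knockout tail library, 0.088 without the third and 0.06 without the first back library, and 0.085 with the replicate block. It had 1384, 597 and 601 in control tail, so that the tail groups did not overlap either. A gap between them, in either direction, was found in 19.0% of all genes. The difference of 1.23 for knockout tail against control tail did not pass (limma adjusted p = 0.7). Tradd, an adaptor of death receptors, had 0, 0 and 2698 against 3355, 4433 and 3168 in the same comparison of body site (difference -2.81, limma adjusted p = 0.087), where the zeros are the sparse libraries. Death receptors and ligands, 7 of 10 measured, had a median difference of -1.11.

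Other members of the wider Bcl2 family did not pass between knockout back and knockout tail. Bcl2l2, a pro-survival relative, had 0, 0 and 154 normalised counts in knockout back, against 72, 409 and 371 in knockout tail and 773, 553 and 545 in control tail. Its values were highest in control tail, and the difference of back against knockout tail was -1.02 (limma adjusted p = 0.17). Bok, a relative of Bax and Bak1, had 1270, 2431 and 1410 in knockout back against 3150, 2854 and 4656 in knockout tail (difference -0.91, limma adjusted p = 0.25). The BH3-only genes Bmf and Pmaip1 (NOXA) were uneven, with 1523, 0 and 463 for Bmf and 0, 2613 and 871 for Pmaip1 in knockout back, against 11, 0 and 0 and 0, 0 and 741 in knockout tail. Bnip3, a mitophagy receptor induced by low oxygen, had 3655, 5464 and 6826 in knockout back against 1077, 2258 and 1093 in knockout tail, with no overlap, a difference of 1.59 and a limma adjusted p of 0.06. Such an upward gap was found in 4.55% of all genes. Bnip1, a vesicle fusion protein of the endoplasmic reticulum, differed by 0.69 (limma adjusted p = 0.25).

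Downstream of the mitochondria, 0 of 8 measured caspases and 0 of 9 apoptosome and release genes passed between knockout back and knockout tail. Casp8, the initiator of death receptor signalling, had 1597, 0 and 1244 normalised counts in knockout back against 2709, 3620 and 3651 in knockout tail (difference -1.98, limma adjusted p = 0.15), and Casp1, which matures interleukin 1 beta, had 2540, 0 and 1461 against 2431, 2285 and 2393. The zeros of Casp8 and Casp1 were again in the sparsest library. Htra2, a protease released from mitochondria, differed by 0.76 and Vdac1, a channel of the outer membrane, by -0.62, with limma adjusted p of 0.25 and 0.34. Of the caspase and death receptor inhibitors 0 of 6 passed. Birc2 differed by 1.29 and Xiap, a direct inhibitor of caspases, by -1.01 (limma adjusted p of 0.32 and 0.37). Of p53 and its targets 0 of 11 passed, with Cdkn1a, an inhibitor of the cell cycle, at 46049, 39205 and 22446 in knockout back against 20936, 15054 and 25252 in knockout tail, and Zmat3 at 1011, 0 and 394 against 1544, 935 and 750.

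**Figure D4:**
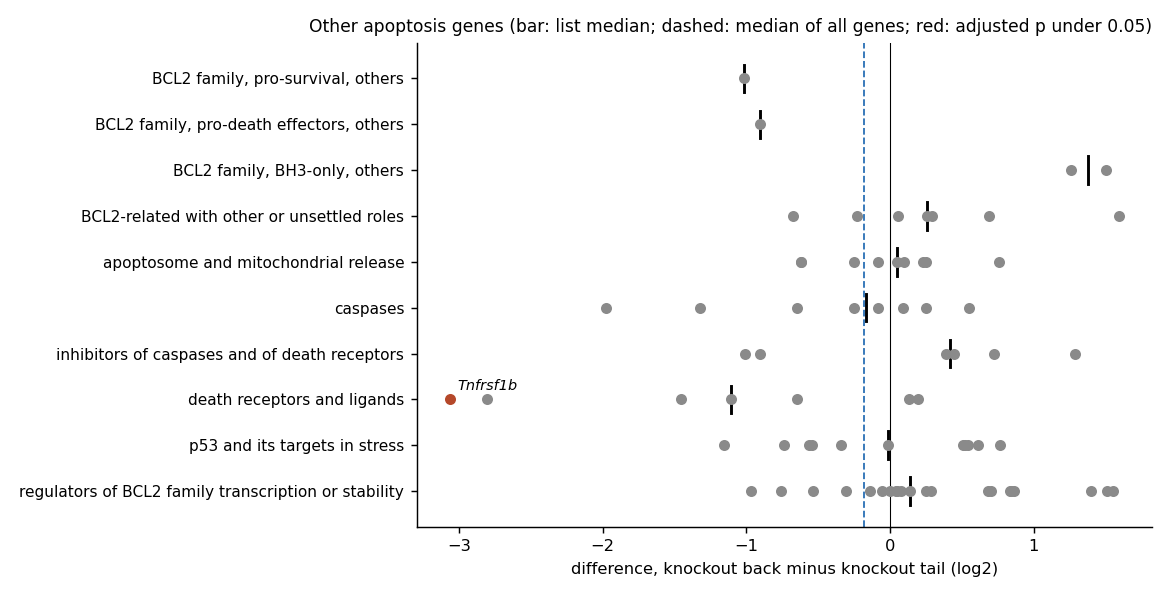
Difference between knockout back and knockout tail on the log2 scale (horizontal axis) for 73 apoptosis genes and regulators outside the 10 members, 1 point per gene, by list down the page; bars are list medians and the dashed line is the median of all genes, -0.18. Tnfrsf1b, at -3.06, is the only point in red, for an adjusted p under 0.05.

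Of 21 regulators of Bcl2 family transcription or protein stability, 0 passed between knockout back and knockout tail, with a median of 0.14. Mitf, named for its known link to BCL2 and after its values were seen, differed by 0.68 (limma adjusted p = 0.12). It had 16094, 15075 and 14955 recovered counts in knockout back, 15565, 9809 and 8545 in knockout tail and 13186, 10341 and 9635 in control tail. These counts are not scaled, and the size factor was 1.0206 for the third back and 1.2386 for the first knockout tail library. Once scaled by size factors, every back library lay above every tail library. Such an upward gap was found in 4.55% of all genes against knockout tail and 7.41% against control tail. The part of Mitf in the Bcl2 difference was not tested. Foxo1, a transcription factor restrained by growth factor signalling, had 5612, 10433 and 1459 normalised counts in knockout back against 3171, 1722 and 277 in knockout tail (difference 1.51, limma adjusted p = 0.075). Usp9x, a deubiquitinase known to stabilise MCL1, had 5108, 1931 and 4221 against 600, 509 and 2076 (difference 1.55, limma adjusted p = 0.076).

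Between knockout tail and control tail 0 of the 73 passed, with a median of 0.08 against -0.05 over all genes. The largest differences among regulators were in Stat3, a cytokine-activated transcription factor, and Kit, the receptor for stem cell factor. Stat3 had 19775, 17809 and 21975 normalised counts in knockout tail against 8967, 4789 and 7962 in control tail, with no overlap (difference 1.04, limma adjusted p = 0.7). Kit had 32525, 37004 and 54245 against 22118, 12819 and 15066, also with no overlap (difference 0.94, limma adjusted p = 0.7). Among stress genes Ccng1, a cyclin induced by p53, had 4038, 3852 and 7433 against 1835, 1726 and 1575 (difference 0.88, limma adjusted p = 1.0), and Sesn2, a sensor of leucine, had 791, 786 and 2397 against 105, 240 and 0. Tnfrsf1a, the main death-inducing receptor for tumour necrosis factor, had 4015, 2288 and 5449 against 1615, 1562 and 1556 (difference 0.7, limma adjusted p = 1.0). Gaps in either direction were found in 19.0% of all genes between these groups, of which the downward ones made up 9.31% of all genes. The remaining named genes, Casp4, Casp9, Apaf1, Endog, Birc3, Birc5, Bcl2l13 and Bnip3, differed by between -1.02 and 0.88 and did not pass.

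Between knockout back and control tail 0 of the 73 passed in the group-only fit. With the set term 3 did, where 3.34% of all genes were called, so the share is near that of all genes. These were picked out after their values were seen: Kit with an adjusted p of 0.045, Bcl2l2 with 0.043 and Tradd with 0.048, against group-only differences of 1.19, -1.75 and -3.38 by limma. Kit was the one of them that rose.

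Across the 9 libraries the deposited values most like those of Bcl2, among 12886 other genes with a mean normalised count of at least 100, were those of Crebbp (Pearson r = 0.975), Ifit2 (0.972), Socs1 (0.971), Pnrc1 (0.968) and Ctdsp2 (0.965). These are a histone acetyltransferase, an interferon-induced antiviral protein, an inhibitor of cytokine signalling, a nuclear receptor coactivator and a phosphatase of RNA polymerase II. The libraries share the group means, the sparse libraries and the set shift, so r is a description. Crebbp had 4307 ± 816 normalised counts in knockout back, 1859 ± 336 in knockout tail and 1566 ± 334 in control tail, and Ifit2 had 4063 ± 1654, 851 ± 118 and 411 ± 257 (SD, n = 3 each). In the same order of groups, Socs1 had 1309 ± 158, 453 ± 186 and 349 ± 90, and Ctdsp2 had 4014 ± 211, 2807 ± 172 and 2906 ± 190. Pnrc1 was uneven, with 7810 ± 5944, 3062 ± 2440 and 5101 ± 389, so its likeness to Bcl2 is less plain in normalised counts. None of the 5 passed between knockout back and knockout tail, with limma adjusted p between 0.056 and 0.25.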

How the data were processed

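Per the labels' protocols, Trizol was used for total RNA and a SMART-Seq v4 low-input kit for the libraries, which were read from both ends. The authors deposited 1 table of log2 values for 16299 genes in 9 libraries. The submitters' processing notes name DESeq2 and GRCm38, while an aligner, a read counter and a strandedness setting are not stated. The values followed a variance-stabilising curve on which 0 counts lie at 7.98, and their means were equal in 2 sets of libraries (within 7.14e-09), so a set shift with a median size of 0.45 had been removed. Undoing both gave whole counts, within 0.004, for 16295 genes (99.98%). Counts of Dct, Pmel, Tyrp1 and Gm22133 were not resolved. Intervals and limits at 0 counts cover counting error only where they concern counts.

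The test was limma 3.58.1 (R 4.3.3) with trend and robust moderation on the deposited log2 values, fitted to group alone over the 9 libraries with no filter. Adjusted p-values are Benjamini-Hochberg over all genes, with a threshold of 0.05. On this curve, genes with few counts show a smaller log2 difference than their true change. Alternatives were the library set or replicate number as a term, the shift put back, limma-voom on counts, array weights, no moderation, a filter (10 normalised counts in 3 libraries), quantile normalisation and leaving libraries out. The fit and the recovery were tested on simulated data. Pairwise deviations of same-numbered libraries did not pair them. Members and lists were chosen with earlier results of these data known. Named genes were all members, list genes past the threshold in either fit, the 2 largest differences per list at a mean of at least 100, and the 5 genes most like a called member. Exon lengths and positions are from GENCODE vM21 on GRCm38 and promoters from RefSeq on GRCm38.p6.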

Additional observations from a re-analysis of the deposited data

How the results depend on the processing

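In the group-only limma fit and 20 other settings Bcl2 stayed higher in knockout back than in knockout tail and control tail, and its calls are given with the result. With the replicate block, which rests on a shared number only (correlations of same-numbered libraries from -0.703 to 0.076), genes past the threshold numbered 21 between knockout back and knockout tail, 42 between knockout back and control tail and 0 between knockout tail and control tail, and members past it 0 in each, with Bcl2 at adjusted p of 0.095 and 0.082. Without the block the genes numbered 244, 163 and 0. Between knockout back and knockout tail the count of genes was 71 with the set term, 31 with the shift put back, 1325 with array weights, 0 without the first and second back libraries and 1637 without the third tail and the third back libraries, and 3 to 1972 when 1 library was left out, the highest without the third back library. Members past the threshold there were 0 with the shift put back and without the first and second back libraries, and 0 to 1 when 1 library was left out. Between knockout back and control tail the count of genes was 545 with the set term, 317 with limma-voom, 428 with limma-voom and the set term, 471 without moderation, 903 with array weights, 579 with quantile normalisation, 0 without the first and second back libraries and 2371 without the third tail and the third back libraries, and 0 to 2804 when 1 library was left out, the highest without the third back library. Members past it there were 0 without the first and second back libraries and 0 to 1 when 1 library was left out. Between knockout tail and control tail it was 10 with the set term and 6 with the shift put back. The summed balance of knockout tail over control tail was 0.35 with the shift removed. The cause of these moves was not tested.

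Differences of members that missed the threshold changed sign as follows. For knockout tail against control tail, Bcl2 was 0.15 with the set term, 0.16 with the shift put back, 0.21 and 0.18 with limma-voom without and with the set term, 0.0 with array weights and 0.17 without the third tail and the third back libraries, and Mcl1 -0.16 with the shift put back and -0.08 with limma-voom. Leaving out 1 library gave -0.23 to 0.17 for Bcl2, -0.05 to 0.18 for Bcl2l1, -0.07 to 0.32 for Mcl1, -0.28 to 0.48 for Bcl2l11, -0.21 to 0.15 for Bid and -0.3 to 0.15 for Bad. For knockout back against knockout tail, Mcl1 was 0.27 with array weights and 0.3 without the first and second back libraries. Bak1 was 0.48 with quantile normalisation. Bcl2l11 was -1.94 and -1.77 with limma-voom without and with the set term. Bid was -0.32 with array weights, -0.02 with quantile normalisation and -0.37 without the first and second back libraries. Bad was 0.02 with limma-voom and the set term and 0.27 without the third tail and the third back libraries. Leaving out 1 library gave -0.78 to 0.35 for Bcl2l1, -0.34 to 0.37 for Mcl1, -0.23 to 0.01 for Bak1, -0.63 to 0.9 for Bcl2l11, -0.28 to 0.2 for Bid and -0.5 to 0.14 for Bad. For knockout back against control tail, Mcl1 was -0.24 with the shift put back, -0.26 and -0.01 with limma-voom without and with the set term and -0.16 without the third tail and the third back libraries. Bax was -0.17 with the shift put back, -0.21 with limma-voom and -0.03 without the first and second back libraries. Bak1 was -0.02 with limma-voom, and Bcl2l11 -0.29 and -0.81 with limma-voom without and with the set term. Bbc3 was -0.17 with the shift put back, -0.38 with limma-voom, -0.03 with array weights and -0.0 without the first and second back libraries. Bid was 0.01 with limma-voom and the set term and 0.18 without the third tail and the third back libraries. Leaving out 1 library gave -0.71 to 0.42 for Bcl2l1, -0.23 to 0.48 for Mcl1, -0.14 to 0.21 for Bax, -0.42 to 1.11 for Bcl2l11, -0.3 to 0.18 for Bid and -0.57 to 0.06 for Bad.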
